A study of Mus musculus with 59 samples.

Results

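Transmitter identity was followed in embryoid bodies exposed to mouse serum through 10 genes chosen by symbol, of which 9 were analysed among the 19613 genes of the table. The cholinergic genes were Chat, Slc18a3, Slc5a7 and Ache, the glutamatergic genes Slc17a6 and Slc17a7, and the inhibitory genes Gad1, Gad2, Slc32a1 and Slc6a5. Slc18a3, which encodes the vesicular acetylcholine transporter, was not analysed here.

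The indicator cells were embryoid bodies, floating aggregates grown from the single mouse embryonic stem cell line HBG3, which carries an HB9-eGFP motor neuron reporter. They had been steered towards spinal motor neurons with retinoic acid and a Hedgehog agonist. On 29 arrays the cells had received serum from male mice hemizygous for a mutant human SOD1 transgene (carrier serum), and on 30 arrays serum from littermates without the transgene (non-carrier serum), in both cases for 24 h. All serum donors were F1 animals of C57BL/6 and SJL. The labels give 9 weeks for 53 arrays and 10 weeks for the other 6. The paper gives ages for the serum donors and not for the cells. Its carriers were bled at an age typically before physical symptoms. The cells themselves had the same genotype throughout, so serum was the variable and the cells were the readout.

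No batch is named in the labels. The titles were therefore used to sort the arrays into 9 runs, by a shared name or by a block of consecutive numbers. The runs titled motorneuron (3 carrier and 4 non-carrier arrays) and HB9MNs (2 and 2) keep those names. All other titles begin with HB9EBs, and the titles do not say whether the cultures differed. The runs known by numbers are called A (3 and 3), B (3 and 3), C (6 and 5), D (3 and 4), E (3 and 3) and F (3 and 3), and the 10-week arrays (3 and 3) form the last run. In the order of the samples, run C falls into 2 blocks that each hold both sera. It may therefore hold more than 1 batch of cells. Within runs the mean correlation of an array with the others lay between 0.979 and 0.996, and a Grubbs' test set 1 non-carrier array of run C and 1 carrier array of run E apart. Nothing in the labels ties an array to a mouse, so p-values measure the spread between arrays, some of which may be technical. A group of 1032 olfactory receptor genes was used here to describe the low end of the intensity scale. All 6 motor neuron markers and all 7 pan-neuronal markers that were measured lay above the 95th percentile of these olfactory receptor genes. So did 3 of 6 pluripotency markers, 4 of 5 astrocyte markers and 4 of 7 mesoderm and endoderm markers. The median of all genes (7.32) also lay above that percentile (6.31), so these counts do not show which cell types were present.

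Neurons are sorted by the transmitter they release, and each transmitter needs an enzyme or uptake step that supplies it and a transporter that loads it into vesicles. Spinal motor neurons are cholinergic, while the interneurons that develop beside them in the ventral cord are either glutamatergic or use GABA, glycine or both. Choline acetyltransferase (Chat) makes acetylcholine, the choline transporter Slc5a7 returns choline to the terminal, and acetylcholinesterase (Ache) breaks the transmitter down. Slc17a6 and Slc17a7 load glutamate into vesicles. The enzymes encoded by Gad1 and Gad2 make GABA, Slc32a1 loads GABA and glycine, and Slc6a5 takes glycine back into glycinergic neurons.

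The members lie on 5 chromosomes of the mouse genome (positions from RefSeq on GRCm38.p6, which is not stated to be the build of the values). Slc18a3 (chromosome 14, 32462437 to 32464850, minus strand) lies inside Chat (chromosome 14, 32408203 to 32465909, minus strand), with its start 1059 bases downstream of that of Chat, an arrangement known as the cholinergic gene locus. Slc17a6 (51621830 to 51671126), Slc6a5 (49906984 to 49963864) and Slc17a7 (45163921 to 45176139) all lie on the plus strand of chromosome 7. Gad1 (70561303 to 70602014), Gad2 (22621015 to 22693877) and Slc32a1 (158607260 to 158615747) lie on the plus strand of chromosome 2. Slc5a7 lies on chromosome 17 (54273590 to 54299038, minus strand) and Ache on chromosome 5 (137288247 to 137294466, plus strand).

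Start regions are shown for the 4 members on which the results turn. Chat and Slc5a7 are the cholinergic genes with the most between-run variation and with the serum call, and Slc17a6 and Slc6a5 are the 2 members whose levels differed most between runs. Each window of 300 bases runs from 250 bases before to 50 bases after an annotated start, 5′ to 3′ on the gene's strand, from RefSeq on GRCm38.p6. Capitals mark 5 short motifs, each searched on both strands. The core shared by many homeodomain factors was searched as TAATTA and the E-box as CAGCTG. The GC box was searched as GGGCGG, the TATA box as TATAAA and the CCAAT box by its name.
Chat, chr14:32465860-32466159, minus strand: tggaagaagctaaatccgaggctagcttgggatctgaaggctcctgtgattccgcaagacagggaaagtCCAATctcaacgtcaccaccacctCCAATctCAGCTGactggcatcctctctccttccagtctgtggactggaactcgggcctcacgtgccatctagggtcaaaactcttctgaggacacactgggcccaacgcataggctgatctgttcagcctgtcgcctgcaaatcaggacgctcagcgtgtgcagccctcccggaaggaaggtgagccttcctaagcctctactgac
Slc5a7, chr17:54298985-54299284, minus strand: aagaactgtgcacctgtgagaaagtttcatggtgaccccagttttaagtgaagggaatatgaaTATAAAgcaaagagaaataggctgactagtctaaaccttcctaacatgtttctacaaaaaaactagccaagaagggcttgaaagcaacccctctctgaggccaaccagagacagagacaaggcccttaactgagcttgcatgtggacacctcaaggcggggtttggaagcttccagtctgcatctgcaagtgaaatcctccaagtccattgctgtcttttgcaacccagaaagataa
Slc17a6, first start, chr7:51621580-51621879, plus strand: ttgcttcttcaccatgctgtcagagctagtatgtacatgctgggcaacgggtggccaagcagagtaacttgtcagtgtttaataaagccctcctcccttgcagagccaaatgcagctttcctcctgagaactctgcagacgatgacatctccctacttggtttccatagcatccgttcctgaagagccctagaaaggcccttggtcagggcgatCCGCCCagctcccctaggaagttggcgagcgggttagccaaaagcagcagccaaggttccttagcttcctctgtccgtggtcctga
Slc17a6, second start, chr7:51624387-51624686, plus strand: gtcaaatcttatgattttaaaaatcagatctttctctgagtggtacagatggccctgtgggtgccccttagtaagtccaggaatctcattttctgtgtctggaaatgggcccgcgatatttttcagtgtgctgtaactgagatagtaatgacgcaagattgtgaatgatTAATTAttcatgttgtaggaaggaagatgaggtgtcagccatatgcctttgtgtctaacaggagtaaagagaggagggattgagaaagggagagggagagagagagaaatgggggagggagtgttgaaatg
Slc6a5, first start, chr7:49910049-49910348, plus strand: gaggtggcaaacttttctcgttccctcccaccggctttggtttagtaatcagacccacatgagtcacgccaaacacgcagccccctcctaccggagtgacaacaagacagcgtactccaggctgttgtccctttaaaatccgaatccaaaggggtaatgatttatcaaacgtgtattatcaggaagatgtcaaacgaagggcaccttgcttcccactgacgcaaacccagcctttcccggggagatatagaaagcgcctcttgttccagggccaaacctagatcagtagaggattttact

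The Chat window holds CAGCTG 150 bases upstream of the start and CCAAT 181 and 157 bases upstream. TATAAA begins 187 bases upstream in Slc5a7, and GGGCGG 36 bases upstream at the first start of Slc17a6. At the second start of Slc17a6, TAATTA begins 81 bases upstream. The Slc6a5 window holds none of the 5 motifs, which says only that these letters are not in this window. Over the 12 windows of all 10 genes, TAATTA was found in 1 (8.33%, against 5.29% of 32851 windows of the same length), CAGCTG in 1 (8.33% against 16.3%), GGGCGG in 5 (41.7% against 35.7%), TATAAA in 2 (16.7% against 13.6%) and CCAAT in 2 (16.7% against 37.4%). A match is a run of letters and not a site shown to be bound.

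The first question was whether carrier serum altered the transmitter genes. Of the 9 genes measured, 1 passed the test across all genes at an adjusted p of 0.05, against 2.33% of all genes (457 of 19613), with 0.683% higher and 1.65% lower. Slc5a7, the choline transporter, was higher with carrier serum. The other 8 did not pass, and their fitted changes lay between -0.029 and 0.065 on the log2 scale. The RNA came from whole embryoid bodies, so fewer cells of a type and less RNA per cell cannot be told apart.

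**Figure D1:**
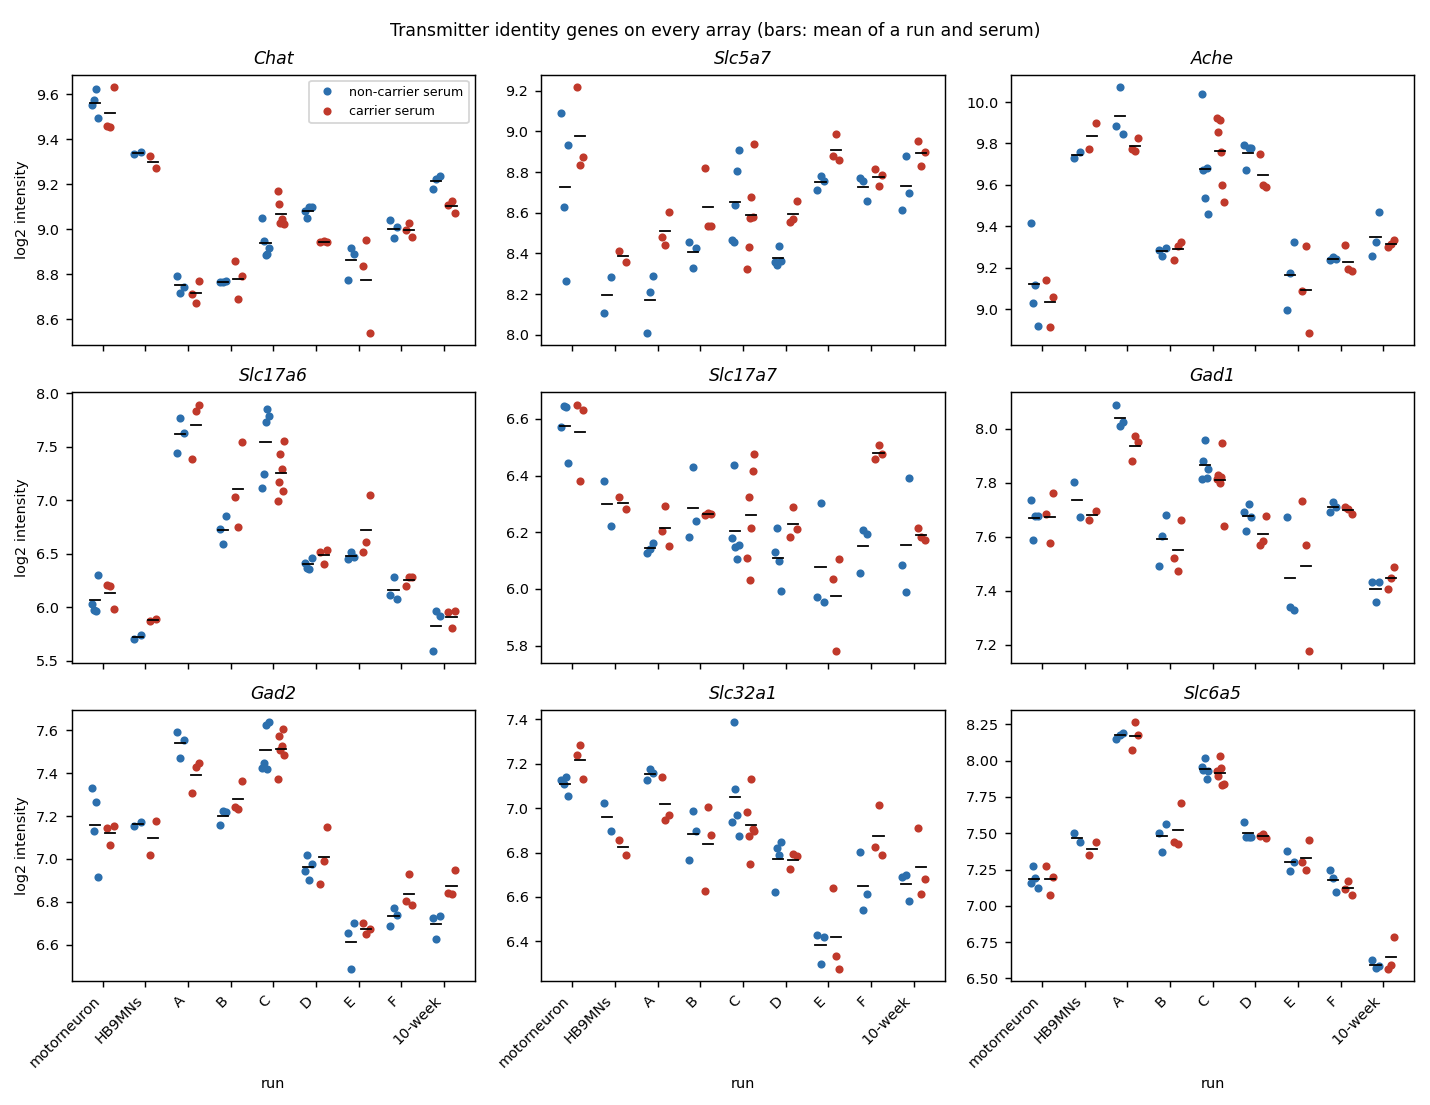
Log2 intensity of the 9 measured genes on each of the 59 arrays, by run (x axis), with non-carrier serum in blue, carrier serum in red and a bar at the mean of each run and serum. In Slc6a5 all arrays of run A (8.07 to 8.26) lie above those of the other runs and all 10-week arrays (6.57 to 6.79) below, the arrays of A, B and C overlap in Slc17a6, and the mean of Slc5a7 lies higher with carrier serum in 8 of the 9 runs.

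With non-carrier serum Slc5a7 had log2 intensities from 8.01 through a median of 8.54 to 9.09, and with carrier serum from 8.32 through 8.68 to 9.22. The arrays of both kinds of serum overlap when runs are pooled. The means were 8.55 ± 0.27 (SD, n = 30) and 8.70 ± 0.22 (SD, n = 29). Fitted with the run as a block, the gene was higher with carrier serum by 0.15 (SE 0.042, 95% interval 0.066 to 0.24, adjusted p = 0.0410 by limma).

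The run means of Slc5a7 were higher with carrier serum in 8 of 9 runs. In run A the non-carrier arrays read 8.01, 8.21 and 8.29 and the carrier arrays 8.48, 8.44 and 8.61, so that the lowest carrier array lay above the highest non-carrier array. The differences of the other runs were 0.25 in the motorneuron run, 0.22 in both B and D, 0.19 in HB9MNs, 0.16 in both E and the 10-week run, and 0.048 in F. Run C ran the other way, with carrier minus non-carrier at -0.067.

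The call for Slc5a7 sat close to the threshold. Leaving out the motorneuron run gave an adjusted p of 0.0316 and leaving out run C 0.0012, whereas it rose above 0.05 without HB9MNs (0.0519), A (0.141), B (0.0967), D (0.176), E (0.0797), F (0.0713) or the 10-week run (0.110). The fitted change stayed between 0.13 and 0.20 over these 9 fits. With each array centred on its own median the change was 0.14 (adjusted p = 0.0602), and with no run block it was 0.15 (adjusted p = 0.995).

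Of the 7 pan-neuronal markers measured, 2 rose in the same comparison, against 0.683% of all genes. Snap25, a protein of synaptic vesicle fusion, was higher by 0.074 (adjusted p = 0.0166 by limma) and Stmn2, a protein of growing axons, by 0.061 (adjusted p = 0.0401). The other 5 did not pass and lay between -0.063 (Rbfox3) and 0.014 (Elavl4), 3 of them negative, and the median change of the list was 0.00016, beside 0.016 over all genes. None of the 6 motor neuron markers and none of the 4 motor neuron progenitor markers passed, although all 4 progenitor markers had negative changes, from -0.085 (Olig2) to -0.035 (Nkx6.2). The mean level of the motor neuron markers on single arrays spanned 9.34 to 9.81 with carrier and 9.36 to 9.80 with non-carrier serum. The part of these genes in the change of Slc5a7 was not tested beyond a fit that added Olig2, Mnx1, Isl1 and Lhx3 as covariates. In it Slc5a7 changed by 0.17 (adjusted p = 0.0130 by limma). The same fit called far more of all genes than the main fit, as given below, so passing in it says less.

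Chat and Ache, the other cholinergic genes measured, did not pass. Chat spanned 8.72 to 9.62 with non-carrier serum (median 9.03) and 8.54 to 9.63 with carrier serum (median 9.02), and the fitted change was -0.023 (95% interval -0.066 to 0.020, adjusted p = 0.533). Ache spanned 8.92 to 10.07 (median 9.44) and 8.89 to 9.92 (median 9.33), with a change of -0.027 (-0.095 to 0.042, adjusted p = 0.659). In both genes the arrays of the 2 sera covered nearly the same range.

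For the glutamate transporters the fitted changes were positive but did not pass. Slc17a6, the vesicular transporter of most spinal glutamatergic neurons, spanned 5.59 to 7.85 (median 6.43) with non-carrier and 5.81 to 7.89 (median 6.53) with carrier serum. Its change was 0.065 (-0.044 to 0.17, adjusted p = 0.482), higher in 8 of 9 runs. Run C was again the exception, at -0.29, and without run C the change was 0.15 (adjusted p = 0.0472). In the first block of run C the non-carrier arrays (7.12 and 7.24) lay within the range of the carrier arrays (6.99 to 7.43). In the second block all non-carrier arrays (7.73 to 7.85) lay above all carrier arrays (7.08 to 7.55). The run block of the main fit did not part these blocks, and whether they are separate batches of cells was not tested. Slc17a7 spanned 5.95 to 6.65 (median 6.18) and 5.78 to 6.65 (median 6.27), with a change of 0.054 (-0.012 to 0.12, adjusted p = 0.336). Its largest within-run difference was 0.33, in run F. With the 4 motor neuron genes added as covariates to the run block, Slc17a7 changed by 0.13 (adjusted p = 0.0067), in a fit that called 6126 genes.

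The 4 inhibitory genes had changes near 0. Gad1 spanned 7.33 to 8.09 (median 7.69) with non-carrier and 7.18 to 7.97 (median 7.68) with carrier serum, a change of -0.029 (-0.079 to 0.021, adjusted p = 0.495). Gad2 spanned 6.49 to 7.64 (median 7.14) and 6.65 to 7.60 (median 7.15), a change of 0.025 (-0.025 to 0.076, adjusted p = 0.565). Both enzymes of GABA synthesis therefore overlapped between sera over nearly their whole range. Slc32a1 spanned 6.30 to 7.39 (median 6.88) and 6.28 to 7.29 (median 6.88), a change of -0.0040 (-0.072 to 0.064, adjusted p = 0.955). Slc6a5 spanned 6.57 to 8.19 (median 7.45) and 6.57 to 8.26 (median 7.44), a change of -0.0054 (-0.047 to 0.036, adjusted p = 0.895). For Slc32a1 and Slc6a5 the 95% intervals leave out changes of more than 0.072 and 0.047 in either direction.

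**Figure D2:**
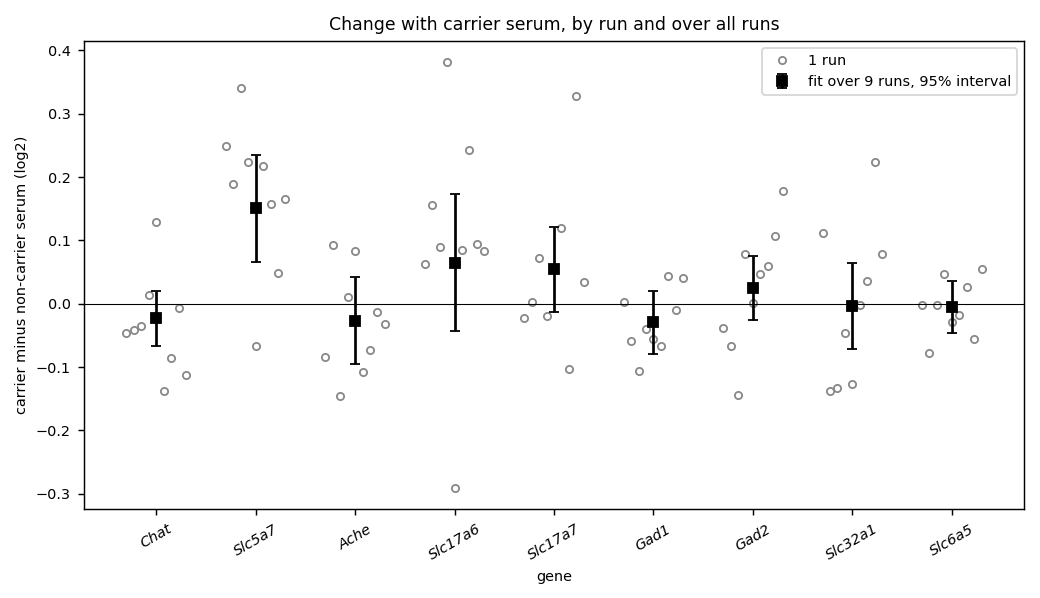
Carrier minus non-carrier serum in log2 units for each gene, as the difference within each of the 9 runs (open circles) and as the fit over all runs with its 95% interval (black squares). The interval lies wholly above 0 for Slc5a7, from 0.066 to 0.24, and includes 0 for the other 8 genes.

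Whether the response to serum differed between runs was tested with a term for serum by run. This term passed for 0 of the 9 genes by limma, against 0.127% of all genes (25 of 19613). At an unadjusted p under 0.05 it held 1 member, Chat (p = 0.0268, adjusted p = 0.556 by limma), and 1557 genes in all. The Chat differences ran from -0.14 in run D to 0.13 in run C.

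Genes around the members, taken from lists of receptors, uptake and supply, were counted in the same test. Of all genes, 1.65% passed as lower and 0.683% as higher. Among 7 genes of choline supply and acetylcholinesterase anchoring, 1 fell with carrier serum, Chkb (a choline kinase, -0.12, adjusted p = 0.0024, lower in 9 of 9 runs). None of 13 nicotinic and muscarinic receptor genes passed, with changes from -0.041 (Chrm4) to 0.11 (Chrna6). The median change of the receptor list was 0.021, beside 0.016 over all genes.

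Of 10 genes of glutamate uptake and supply, 2 fell, against 1.65% of all genes. Slc1a4, a carrier of neutral amino acids, fell by 0.28 (adjusted p = 0.0039, lower in 7 of 9 runs), and Slc1a2, the main glial glutamate transporter, by 0.068 (adjusted p = 0.0314, lower in 9 of 9 runs). Among 10 genes of glycine receptors, uptake and cleavage, 1 fell, Slc6a9, the glial glycine transporter (by 0.24, adjusted p = 0.0102, lower in 8 of 9 runs). None of the 6 genes of GABA uptake and breakdown, the 12 GABA-A receptor subunits or the 2 chloride transporters passed, with changes between -0.061 (Slc12a5) and 0.11 (Gabra6).

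The second question was how far the transmitter genes differed between runs. All 9 passed the test for differences between runs, as did 94% of all genes, so passing says little about these genes in particular. The size of the differences varied among them. Slc6a5 had run means spanning 1.55 log2 units (2.93-fold), more than 99.3% of all genes. Slc17a6 spanned 1.86, but 4 of its 9 run means lay under the 95th percentile of the olfactory receptor genes (6.31). With run means under that level raised to it, in all genes, its range was 1.35 (2.55-fold, more than 98.8% of genes), a choice made after the data were seen. The ranges of the other members were 0.86 for Gad2, 0.80 for Chat, 0.78 for Ache, 0.76 for Slc32a1, 0.56 for Slc5a7 and Gad1 and 0.54 for Slc17a7 (0.25 with its 7 run means under that level raised to it), and the median over all genes was 0.53.

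**Figure D3:**
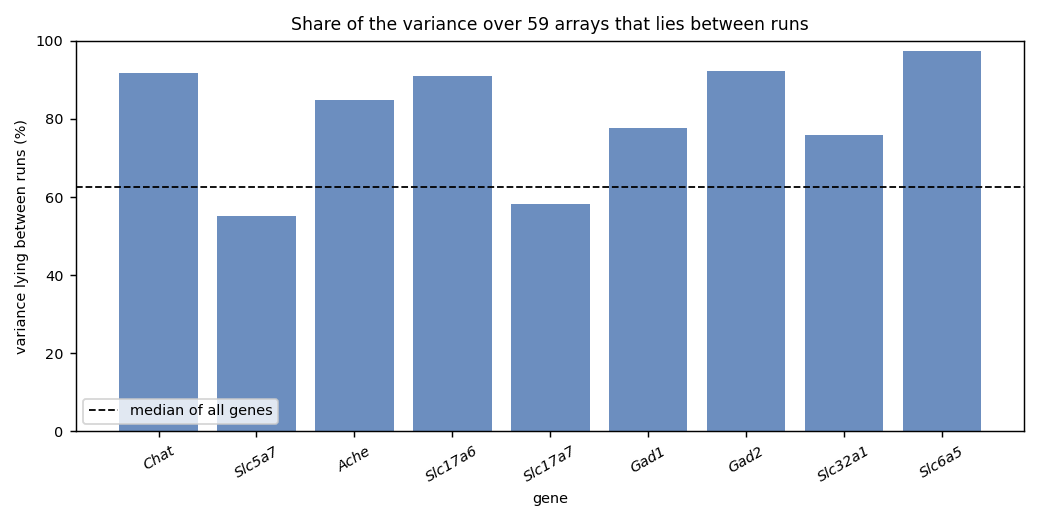
Percent of the variance of each gene over 59 arrays that lies between the 9 runs (bars), with the median of all genes as a dashed line at 62.5%. Slc6a5 reaches 97.5%, and Slc5a7 (55.3%) and Slc17a7 (58.2%) lie under the line.

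The share of a gene's variance that lay between runs was 97.5% for Slc6a5, 92.1% for Gad2, 91.6% for Chat, 90.9% for Slc17a6, 84.9% for Ache, 77.7% for Gad1 and 75.8% for Slc32a1, with 62.5% as the median of all genes. Slc17a7 (58.2%) and Slc5a7 (55.3%), the genes with the narrowest ranges beside Gad1, lay under that median. Run, the name in the titles, differentiation and array processing cannot be told apart.

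Chat was highest in the motorneuron run (run mean 9.54), followed by HB9MNs (9.32), the 10-week run (9.16), D (9.01), C and F (both 9.00), E (8.82), B (8.77) and A (8.73). Of the 8 neighbours in this order, 4 were farther apart than the SD within runs (0.070), while the steps from D to C, C to F, E to B and B to A were each smaller than this SD. Slc5a7 ran from 8.85 in the motorneuron run to 8.29 in HB9MNs, with no neighbours farther apart than its SD of 0.16. Ache formed 2 groups, with A (9.86), HB9MNs (9.79), C (9.72) and D (9.70) above the 10-week run (9.33), B (9.28), F (9.24), E (9.13) and the motorneuron run (9.08). The gap of 0.37 between D and the 10-week run was the only one over its SD of 0.14.

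Chat and Ache therefore had different orders. The motorneuron run was the highest for Chat and the lowest for Ache, and over the 9 run means their r was -0.19.

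Slc17a6 was highest in A (7.66), C (7.40) and B (6.92), then came E (6.60), D (6.44), F (6.21), the motorneuron run (6.10), the 10-week run (5.87) and HB9MNs (5.80). Of the 8 neighbouring gaps 5 exceeded the SD within runs of 0.20, among them A over C, C over B and B over E. Slc17a7 spanned 6.57 in the motorneuron run to 6.03 in E, with its mean over all arrays (6.25) under the 95th percentile of the olfactory receptor genes (6.31), and 5.72% of those genes were at or above it. For Slc17a6 that share was 2.13%, with its lowest 4 run means also under 6.31.

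Among the inhibitory genes, Slc6a5 followed the order A (8.17), C (7.93), B (7.50), D (7.49), HB9MNs (7.43), E (7.32), motorneuron (7.18), F (7.15) and 10-week (6.62). The steps from B to D and from D to HB9MNs were smaller than the SD of 0.079, while A, C and the 10-week run each stood clear of their neighbour. Gad2 was highest in C (7.51) and A (7.47) and lowest in E (6.65). Gad1 ran from 7.99 in A to 7.43 in the 10-week run. Slc32a1 ran from 7.16 in the motorneuron run and 7.09 in A to 6.40 in E, and only the last step, from the 10-week run to E (0.30), exceeded its SD of 0.12.

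Across the 9 run means 2 relations between members had nearly the same size of r. The cholinergic Slc5a7 and Ache ran opposite, with r = -0.85 and rho = -0.87 (exact permutation p = 0.0090 and 0.0045, adjusted 0.171 and 0.182). Without the 2 runs farthest from the median of Slc5a7 r was -0.72, and leaving out any 1 run gave -0.92 to -0.81. The excitatory Slc17a6 and the inhibitory Slc6a5 had r = 0.86 and rho = 0.78. This relation did not pass adjustment over the 90 relations of members with each other and with 6 reference genes (exact permutation test, p = 0.0023, adjusted p = 0.171 for r and 0.221 for rho), and r was 0.56 without the 2 runs farthest from the median of Slc17a6. Chat ran against Slc17a6 with r = -0.70 and rho = -0.82 (exact permutation p = 0.0340 and 0.0108, adjusted 0.262 and 0.194). Gad2 and Slc32a1 had r = 0.81 and rho = 0.85 (exact permutation p = 0.0069 and 0.0061, adjusted 0.171 and 0.182). Of the 36 pairs of members 0 passed, and 12 had an unadjusted p under 0.05.

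The members were then set against 15 markers of spinal interneurons, 5 excitatory and 10 inhibitory, and against the median olfactory receptor level, over the same 9 run means. This family, each of the 9 members against each of these 16 measures, was added after the values were seen. Of these, 9 passed by Pearson's r and 5 by both r and Spearman's rho. By r Slc32a1 had 4, Slc17a7 had 3 and Gad2 had 2, and the other 6 members had 0.

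Gad2 followed Lhx5, a LIM homeodomain factor from the list of inhibitory interneuron markers, with r = 0.99 and rho = 0.97 (exact permutation test, adjusted p = 0.0028 and 0.0238), and leaving out any 1 run gave 0.99. Lhx5 lay under the 95th percentile of the olfactory receptor genes in 6 of the 9 runs. Gad2 also followed Gata3, a factor of V2b interneurons, with r = 0.91 and rho = 0.95 (adjusted 0.0288 and 0.0254). Slc6a5 had r = 0.84 and rho = 0.83 with Lhx5 and did not pass (adjusted 0.0515 and 0.0992, exact permutation test). Slc32a1 passed by both measures with Pax2 (r = 0.95, rho = 0.92), a marker of inhibitory interneurons, Foxd3 (r = 0.94, rho = 0.93) and Gata3 (r = 0.85, rho = 0.92), with adjusted values from 0.0079 to 0.0378. With En1, a factor of V1 interneurons, it passed by r alone (0.90, adjusted p = 0.0373, exact permutation test), and r was 0.63 without the 2 farthest runs. Leaving out any 1 run gave 0.79 to 0.95 for Slc32a1 with En1. For excitatory markers, none of which passed, this gave 0.76 to 0.94 with Tlx3, 0.68 to 0.93 with Evx1 and -0.34 to 0.14 with Sim1. With the inhibitory marker Lhx1 it gave 0.25 to 0.61. Foxd3 lay under the olfactory receptor percentile in 4 runs, and Pax2, Gata3 and En1 in 0. The runs C and A were the highest for both Gad2 and Lhx5, and run E was the lowest for Gad2, Slc32a1, Lhx5 and Pax2. Run E also had the lowest mean level of the excitatory interneuron markers (6.94), the pluripotency markers (5.95) and the astrocyte markers (6.74). Other cell type lists were lowest in other runs, such as the motor neuron markers in A. The share of all genes that reach such values of r over run means was not computed. The 5 genes outside the members whose deviations within runs were most like those of Slc32a1 had r from 0.70 (Tonsl) to 0.95 (Ephb6) with it over the run means.

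**Figure D4:**
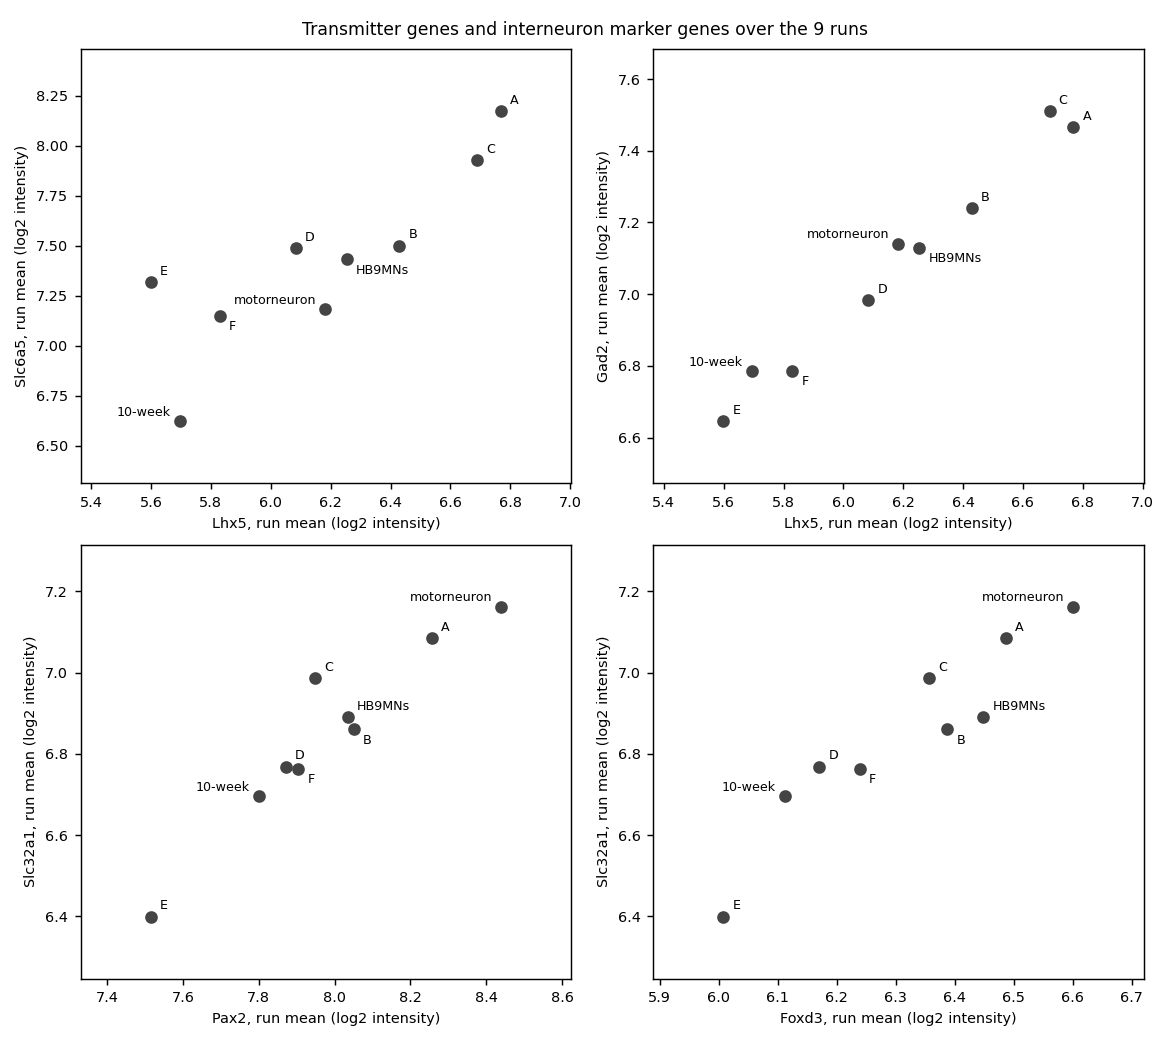
Run means in log2 intensity of Slc6a5 and Gad2 against Lhx5 and of Slc32a1 against Pax2 and Foxd3, with 1 labelled point for each of the 9 runs. Gad2 and Lhx5 lie close to 1 line (r = 0.99), and run E lies at the lower end of both Slc32a1 panels.

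Slc17a7, a glutamate transporter, passed by r with the excitatory marker Evx2 (0.95). It also passed by r with Tal1 (0.93) and Ptf1a (0.92), both from the list of inhibitory markers. Adjusted p ran from 0.0288 to 0.0373 in the exact permutation test, and Slc17a7 passed by both measures with none. All 3 values of r were weakest without the motorneuron run (0.85 to 0.87), and without the 2 farthest runs they lay between 0.60 (Tal1) and 0.63 (Ptf1a). Slc17a7 itself lay under the olfactory receptor percentile in 7 of the 9 runs and Ptf1a in 2. The median olfactory receptor level was also highest in the motorneuron run, at 4.85, and lay between 4.46 and 4.61 in the other 8. Over the run means its r with Slc17a7 was 0.73 (exact permutation test, adjusted p = 0.211), with Slc32a1 0.37 and with Gad2 -0.11.

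The third question was which members varied together from array to array inside a run, once the mean of each run and serum was taken away. Of the 36 pairs, 3 passed by Pearson's r in 100000 permutations within run and serum, each with an adjusted p of 0.0488. These were Chat with Ache (r = 0.51, rho = 0.37), Slc5a7 with Slc17a6 (r = 0.48, rho = 0.50) and Gad1 with Gad2 (r = 0.35, rho = 0.54). By rho the last pair and Slc5a7 with Slc17a6 passed (adjusted p = 0.0081 and 0.0468), and Chat with Ache did not (0.191). Run C counted as 1 run here, so a difference between its 2 blocks enters these relations. Its non-carrier arrays read 8.46 and 8.46 for Slc5a7 in the first block and 8.64 to 8.91 in the second. For Slc17a6 they read 7.12 and 7.24 in the first block and 7.73 to 7.85 in the second. The relations were not tested with the blocks parted.

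Without the 2 arrays that stood apart from their runs, r was 0.45 for Chat with Ache (adjusted p = 0.180), 0.49 for Slc5a7 with Slc17a6 (0.0837) and 0.44 for Gad1 with Gad2 (0.0837), so that 0 pairs passed by r (permutation tests). By rho the same 2 pairs passed, at 0.0354 and 0.0036. Without the 2 arrays farthest from the median of the first gene, r was 0.41, 0.55 and 0.42. The carrier array of run E that stood apart had the lowest Chat (8.54), Ache (8.89), Gad1 (7.18) and Slc32a1 (6.28) of all 59 arrays.

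**Figure D5:**
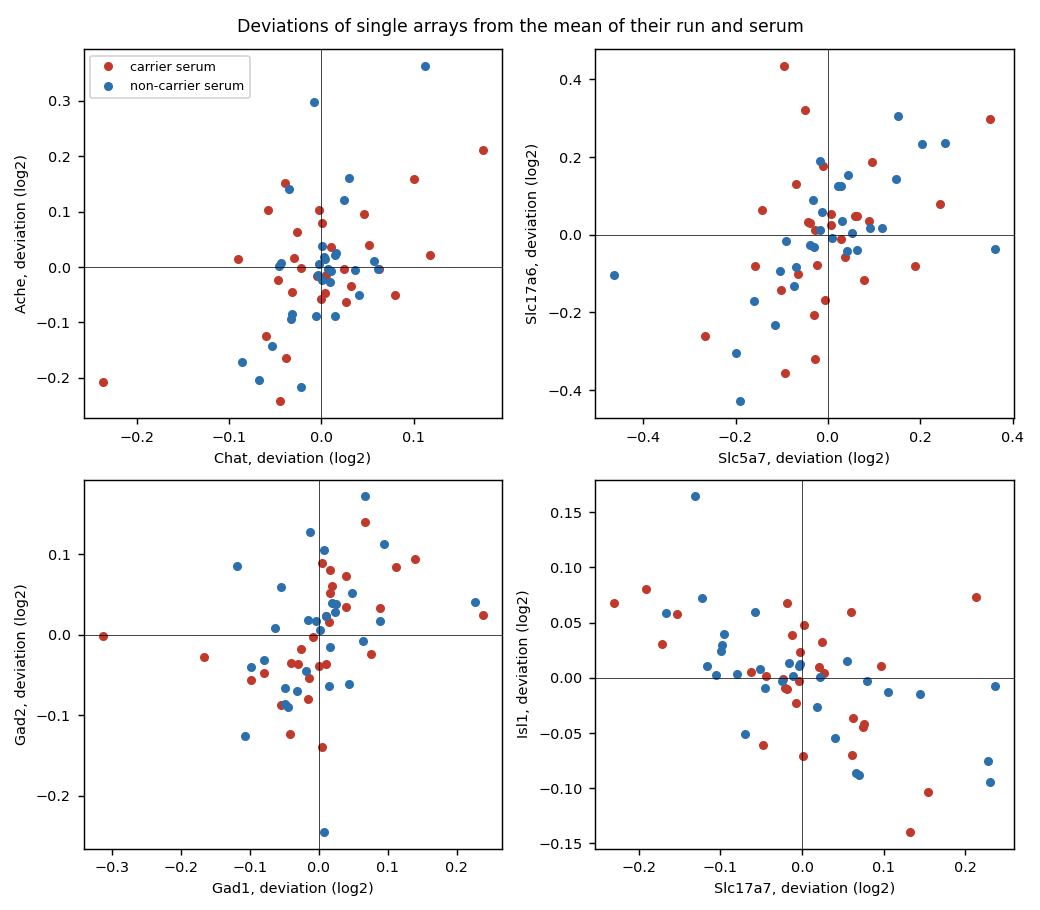
Deviation of each of the 59 arrays from the mean of its run and serum in log2 units, for Chat and Ache, Slc5a7 and Slc17a6, Gad1 and Gad2, and Slc17a7 and Isl1, with carrier serum in red and non-carrier serum in blue. The first 3 pairs rise together (r from 0.35 to 0.51) and the last runs opposite (r = -0.56).

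With the reference genes, 5 relations of 54 passed by r within runs. Slc17a7 ran against Isl1, a factor of motor neurons (r = -0.56, rho = -0.56, permutation test, adjusted p = 0.0333 and 0.0130). Slc5a7 (r = 0.54) and Slc17a6 (r = 0.37) rose with Sox2, a factor of neural progenitors, Ache rose with the motor neuron factor Mnx1 (r = 0.53), and Slc6a5 ran against Lhx3 (r = -0.44), each with an adjusted p of 0.0488 in the permutation test. Without the 2 arrays apart, 0 of the 54 passed by r and 1 by rho, Slc17a7 with Isl1 (adjusted p = 0.0354, permutation test).

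The first component of all genes within runs, its sign set so that Chat was positive, held 20.4% of the variance. Slc17a7 had r = -0.63 with it, Slc32a1 -0.46 and Gad2 -0.35, while Isl1 had 0.55. Of all genes, 33.4% had an r beyond 0.5 with it in either direction. The median olfactory receptor level rose with Slc17a7 within runs (r = 0.52, permutation test, adjusted p = 0.0204). Slc17a7 and Slc32a1 were also the members with most relations past the threshold within runs in the family with interneuron markers, 7 (this one among them) and 5 by r. Without the 2 arrays that stood apart, 8 relations of that family passed by r in place of 14.

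Of all genes above the median level, those whose deviations were most like those of Chat over the 59 arrays were Mpp2, Tfe3, Ss18l1, Gramd1a and Dip2a (r from 0.77 to 0.78). For Slc17a6 they included Pcdhb19, Slc25a24, Mdn1 and AW551984 (r from 0.71 to 0.74), and for Slc32a1 they were Tonsl, Fam195a, Ephb6, Adamtsl4 and Sftpb (r from 0.63 to 0.66). Over the run means the genes named for Chat had r from -0.11 (Dip2a) to 0.21 (Ss18l1) with it. Those named for Slc17a6 had r from -0.50 (Slc25a24) to 0.84 (AW551984) with that gene. The 59 arrays include the run E array with the lowest Chat, and the ranking was not repeated without that array. Chat itself had a higher r with Ache (0.51) than with 96.9% of genes while 5.09% of genes had a lower r with Chat than Slc17a6 had (-0.44).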

How the data were processed

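RNA of 59 samples was hybridised to Affymetrix mouse exon arrays. Per the labels the files were processed with Affymetrix Expression Console and RMA. The authors removed arrays that failed a Grubbs' test, normalized the rest together by RMA in aroma.affymetrix and averaged the exons of each gene. Each deposited value is a linear intensity to which the authors' later batch correction had not been applied, and here log2 of it was taken with a pseudocount of 0. The build is not given in the sources used here. Array medians ran from 151 to 183, and no gene was filtered out. The number of arrays limits the precision.

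Carrier minus non-carrier serum was fitted across all 19613 genes in R 4.3.3 (limma 3.58.1, lmFit followed by eBayes). The run entered as a block, and two-sided p-values were adjusted by Benjamini-Hochberg and called at 0.05. Moderated F tests covered the runs and serum by run. Relations within runs used deviations from the mean of each run and serum with 100000 permutations within those groups, and relations between run means used all permutations of 9 runs (Python 3.11.15, numpy 2.4.6). No array was left out unless stated. Simulated data of this design were used to test the fit, in which 200 of 19613 genes were changed, 50 by each of 4 sizes. Those changed by 0.1 were recovered at 38%, by 0.15 at 72% and by 0.3 at 98%, and 17 unchanged genes were called. The errors were drawn independently for each gene, so variation shared between genes was not simulated.

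Members and lists were chosen with earlier results of these data known. Every member is named, and of other lists the called genes or else the lowest and highest change. The 5 genes most alike were sought among genes above the median level for 3 members, and Chat took the place of Slc18a3. Alternatives covered scaling, filters, the variance model, the block, motor neuron covariates and each run left out. Leaving out the 2 arrays that stood apart, the olfactory receptor covariate and the interneuron relations were added after the data were seen. The results of 1 interneuron marker and of 1 of the most alike genes are not reported here. The title numbers are shared between sera in 3 runs, and 1 of 8 such pairs deviated together with r over 0.1 (r from -0.13 to 0.33), so they were not taken as pairs.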

Additional observations from a re-analysis of the deposited data

Results flagged for a closer look

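The 4 groups of 1 run and serum that hold 4 to 6 arrays were examined for each of the 9 genes, and in 3 of these 36 cases 1 array was set far from the others, where chance alone gives about 5%. Ache, the acetylcholinesterase gene, read 9.67 on 1 of the 4 non-carrier arrays of run D, below the other arrays of that group (9.78 to 9.79). Slc17a7, a vesicular glutamate transporter, read 6.44 on 1 of the 5 non-carrier arrays of run C, above the others (6.11 to 6.18), and this array also had the lowest mean correlation within its run (0.990). Slc6a5, the neuronal glycine transporter, read 7.58 on 1 of the 4 non-carrier arrays of run D, above the others (7.47 to 7.48).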

How the results depend on the processing

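The number of members called for serum was 1, and it was 0 with each array centred on its median, with no run block, with 4 motor neuron genes in place of the run block and with the median olfactory receptor level as a covariate (added after the data were seen), 2 with the 4 genes beside the run block, and 0 to 2 when each run was left out. Slc5a7 stayed positive in 23 of 23 alternatives (0.13 to 0.20) and was called in 12, with an adjusted p of 0.109 under the olfactory receptor covariate. The share of all genes called moved from 2.33% to 14.3% with array weights, 31.2% with the 4 genes beside the block, 0.275% with them in its place, 0.617% with the olfactory receptor covariate, 3.65% without the 2 arrays apart and 0.54% to 8.16% with each run left out. With no run block limma called 0 genes, with 805 at an unadjusted p under 0.05. Genes called for serum by run numbered 25, with 47 without the 2 arrays and from 0 (without run C, 1324 at an unadjusted p under 0.05) to 54 with each run left out. With dim genes left out, 5 members remained in the tables and all 5 differed between runs. With quantile normalization 1 pair of members passed within runs and 2 across run means, and without the 2 arrays 0 passed within runs. Signs of changes that did not pass turned for Slc32a1 with array weights (0.0069), the 4 genes beside the block (0.041) or in its place (0.079) and without the 2 arrays (0.018), for Slc6a5 with no block (0.019) and the 4 genes in its place (0.10), for Ache (0.0032) and Gad1 (0.047) with the 4 genes in its place, and for Chat (0.0021) and Ache (0.0044) with the olfactory receptor covariate. With each run left out Slc32a1 lay between -0.030 and 0.024 and Slc6a5 between -0.012 and 0.00025. With the title number as a replicate block in 3 runs, 1 member was called, Slc5a7 (0.16, adjusted p = 0.0165), and no call of a member changed. The causes were not tested. Values near the level of olfactory receptor genes, as for Slc17a7, limit what could be measured.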

Other observations

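Outside the members, Th (tyrosine hydroxylase, which starts the synthesis of catecholamines) had run means spanning 2.03 log2 units, from 9.97 in the motorneuron run and 9.78 in HB9MNs to 7.94 in A, the runs at the upper and lower ends of Chat. Slc18a2, the vesicular monoamine transporter, ran from 7.83 in the motorneuron run to 6.89 in A. Sim1, a factor of excitatory V3 interneurons that lay under the 95th percentile of the olfactory receptor genes in 4 of 9 runs, was highest in the 10-week run (7.21) and lay between 6.20 and 6.71 in the other runs, while Slc6a5 was lowest there (r = -0.81 over 9 run means, exact permutation test, adjusted p = 0.0562 over the family of members and interneuron markers, not past the threshold, and -0.62 without the 10-week run). Neither Th nor Sim1 passed the serum test (changes 0.045 and 0.049, adjusted p = 0.619 and 0.351 by limma).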
